A study of Rattus norvegicus with 24 samples.

Results

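The comparison described here sets induced INS1 cells given KIRA9 for 24 h against uninduced INS1 cells given vehicle for 24 h. Its samples were picked by label, with earlier results of these data known. It holds 6 of the 24 samples of the series, 3 in each group. INS1 is a rat insulinoma line that secretes insulin and stands in for the pancreatic beta cell. Every group of the series carries a mouse IRE1α (Ern1) transgene that doxycycline switches on. The KIRA9 cells received doxycycline and KIRA9. The uninduced cells received neither, only the vehicle. A further group at 24 h, induced cells given doxycycline and vehicle, was used to divide what remained of induction from what was new. Induced cells given doxycycline and PAIR1, another compound, were set beside the KIRA9 cells. The groups collected at 4 h had no part in the contrasts behind the division, but shared its filter and its estimate of spread. The labels give no dose of KIRA9, do not say whether the line is 1 clone, and list no uninduced cells given the compound, so effects of doxycycline, of the transgene and of KIRA9 outside IRE1α cannot be told apart in this contrast.

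IRE1α sits in the membrane of the endoplasmic reticulum, where its luminal part senses unfolded proteins. Its cytosolic part joins a kinase to an RNase. When the RNase is active it starts the splicing of Xbp1 mRNA, which yields a transcription factor for chaperones, degradation and secretory genes. Under stronger activation it also cuts other mRNAs at the reticulum, a process known as regulated IRE1-dependent decay. Beta cells make large amounts of proinsulin and are known to depend on this pathway. The acronym KIRA stands for kinase-inhibiting RNase attenuator, a type of compound that binds the kinase and lowers RNase output.

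Poly(A) RNA was counted per Ensembl gene ID. The deposited table does not pair IDs with gene names, and 0 of its 26689 IDs matched the gene table used here. The 34 gene lists prepared for the unfolded protein response, insulin granules, beta cell identity, the cell cycle and other cell types were therefore not analysed here, nor were the markers of the beta cell or the level of the transgene. For the same reason IDs are described by counts and classes, and 4 of them are printed. The 6 libraries held 14.7 to 23.8 M counts, so that 3 counts, the most that a count of 0 allows, were worth 0.126 to 0.204 CPM (counts scaled to a common library size), a limit for counting error only. A block of 41 IDs, found after the data were seen, took 0.667 to 0.744% of counts in 6 of the 24 libraries and 0.0705 to 0.0853% in the other 18. Of the 6 compared libraries, 1 belongs to the block, uninduced replicate 2, and of the induced vehicle libraries at 24 h replicates 1 and 2 do. Values without the 6 libraries that carry the block are given beside the main counts of calls and classes.

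At 24 h, induced cells under KIRA9 still differed from uninduced cells in many IDs, mostly by little. Of 13760 IDs tested, 1735 rose (12.6%) and 1486 fell (10.8%) at an adjusted p below 0.05 in edgeR's quasi-likelihood test. The median change of those that rose was 0.29 on the log2 scale, with the middle of the distribution between 0.20 and 0.44. For those that fell it was -0.26, between -0.47 and -0.18. The median over all IDs tested was -0.01. Only 45 of the risen IDs were at least 2-fold higher and 103 of the fallen IDs at least 2-fold lower, of which 7 and 21 passed 4-fold. Induced cells given vehicle set the scale: there 4102 IDs rose (29.8%) and 4401 fell (32%), with 387 at least 2-fold higher and 1257 at least 2-fold lower.

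In most called IDs the libraries of the 2 groups did not overlap. The test that called these IDs used the same libraries and favours such separation, so the counts describe the calls. The 3 KIRA9 libraries lay above all 3 uninduced libraries in 1680 of the 1735 IDs that rose and below them in 1361 of the 1486 that fell. Over all IDs tested, the libraries of the 2 groups stood apart in this way in 2477 (18%) upward and 2293 (16.7%) downward. The share of IDs called was higher at higher levels. Of the 3076 IDs with a mean below 5 CPM, 2.5% rose and 4.55% fell, with median changes of 0.89 and -1.03. Of the 4339 IDs at 50 to 500 CPM, 21.8% rose and 16.2% fell, with medians of 0.24 and -0.19. Of the 260 IDs at 500 CPM and above, 24.6% rose and 28.1% fell. Levels here are per library and not per transcript length. Without the 6 libraries that carry the block, 1528 IDs rose and 1134 fell. With only the uninduced, induced vehicle and KIRA9 groups at 24 h in the fit, 1423 rose and 1142 fell. With only the 6 compared libraries in the fit, 885 fell. In bulk RNA, fewer cells that express a gene and less RNA per cell cannot be told apart.

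The called IDs were divided by their state in induced vehicle cells at 24 h. An ID was counted as kept when induction alone had also changed it in the same direction, as passed beyond when induction had changed it in the opposite direction, and as new when induction was not called and KIRA9 differed from both vehicle groups in the same direction. IDs moved by induction and moved further by KIRA9 were set apart as amplified, and the rest as unresolved. The contrasts share libraries, so the division describes the called IDs and tests nothing about overlap. Among the 1735 that rose, 765 were kept (44.1%), 617 had passed beyond (35.6%), 248 were new (14.3%), 59 were amplified (3.4%) and 46 were unresolved (2.65%). Among the 1486 that fell, 775 were kept (52.2%), 279 had passed beyond (18.8%), 332 were new (22.3%), 28 were amplified (1.88%) and 72 were unresolved (4.85%). Of all IDs tested, induction had raised 29.8% and lowered 32%. The share passed beyond was thus near that of all IDs upward (35.6% against 32%) and below it downward (18.8% against 29.8%).

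**Figure D1:**
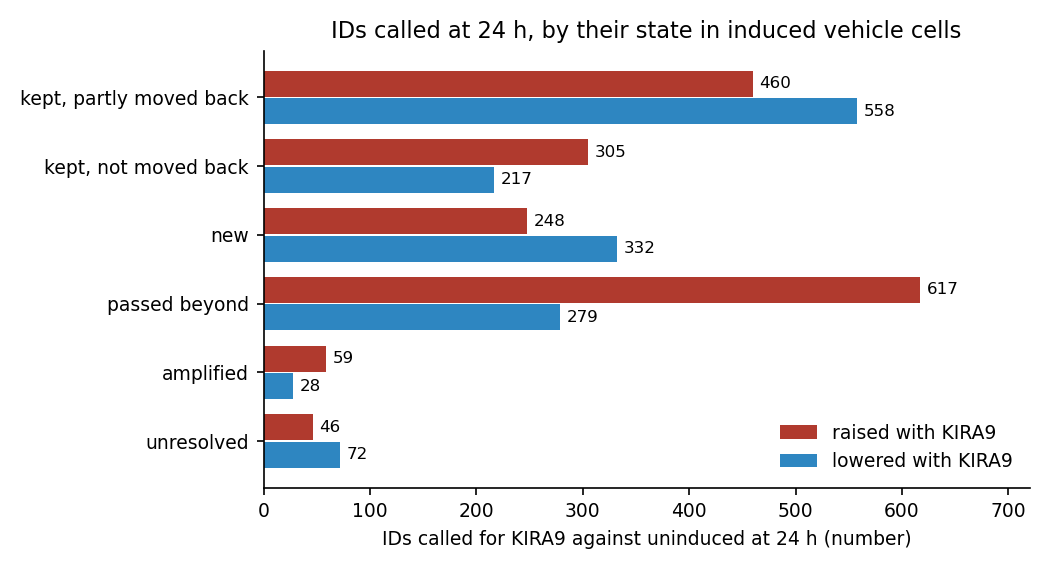
Number of IDs called for KIRA9 against uninduced cells at 24 h (horizontal axis) in each class, with the number at the end of each bar. Separate bars show IDs higher (raised) and lower (lowered) in induced KIRA9 cells than in uninduced cells. Kept IDs form the most frequent group in both directions, though not among raised IDs with the other time label (501 kept, 618 new), and passing beyond the uninduced level was counted 617 times upward and 279 times downward, an excess that was not seen with libraries scaled by their totals alone (487 and 499).

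These classes depended on which libraries stood for induced cells. For the induced vehicle libraries the time characteristic contradicts the title, and with the characteristic in place of the title 501 raised IDs were kept, 618 were new and 151 had passed beyond, and 82 lowered IDs had passed beyond. Without the 6 libraries that carry the block, which leaves 1 induced library at 24 h that is assumed to vary like the others, 645 raised and 575 lowered IDs were kept, 277 and 242 were new, and 455 and 161 had passed beyond. The unresolved class was the least stable: without those libraries it held 128 raised and 149 lowered IDs. With 1 induced vehicle library left out it held 74, 73 or 75 raised IDs (replicates 1, 2 and 3) and 107, 124 or 112 lowered IDs, and without KIRA9 replicate 1 it held 43 lowered IDs. With libraries scaled by their totals alone, 487 raised and 499 lowered IDs had passed beyond, so that the excess upward was lost.

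Most IDs changed by induction were not called between KIRA9 and uninduced cells, which does not show a full return. Of 4102 raised by induction, 824 were still called higher (20.1%, against 12.6% of all IDs), 279 lower (6.8%) and 2999 neither (73.1%). Of 4401 lowered, 803 were still called lower (18.2%, against 10.8%), 617 higher (14%) and 2981 neither (67.7%). The 824 and 803 include the amplified IDs. The kept IDs mostly showed a reduced form of induction. Of the 765 kept raised IDs, 460 were lower with KIRA9 than in induced vehicle cells, so that they stood between both vehicle groups. Their median change from uninduced cells was 0.64 with vehicle and 0.27 with KIRA9. The other 305 were not called between KIRA9 and induced vehicle cells, where the median difference was -0.02, and their median change was 0.35 with vehicle and 0.32 with KIRA9. Of the 775 kept lowered IDs, 558 were higher with KIRA9 than in induced vehicle cells, and their median change went from -1.12 with vehicle to -0.24 with KIRA9. For the other 217 the median difference between KIRA9 and induced vehicle cells was 0.01, and the median changes were -0.30 and -0.28. Over all IDs tested, 32.3% were higher and 30.6% lower with KIRA9 than in induced vehicle cells.

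Summed over the class, the kept raised IDs took 6.76 ± 0.043% of counts in uninduced, 10.7 ± 0.051% in induced vehicle and 8.23 ± 0.039% in KIRA9 libraries at 24 h (SD, n = 3). The kept lowered IDs took 13.6 ± 0.11%, 7.87 ± 0.016% and 11.3 ± 0.029%. These sums restate the choice of the IDs in units of the whole library.

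IDs lowered most by induction were the ones most often still called lower with KIRA9. Of the 215 IDs lowered by induction by 4-fold and more, 105 (48.8%) were still called lower with KIRA9, where 10.8% of all IDs were, and 9 had passed above the uninduced level. Their median level was 38 CPM in uninduced, 7.07 in induced vehicle and 26.5 in KIRA9 cells. Of the 1042 lowered 2 to 4-fold, 22% were still lower. Of the 1143 lowered 1.5 to 2-fold, 13.6% were still lower and 14.6% had passed above. Below 1.5-fold, 15.7% of 2001 were still lower and 16.2% had passed above, so that the share was not ordered by size below 2-fold. Among IDs raised by induction the largest changes had the lowest share: 17.1% of the 2885 raised below 1.5-fold were still higher, 28.7% of the 830 raised 1.5 to 2-fold, 25.9% of the 324 raised 2 to 4-fold and 12.7% of the 63 raised 4-fold and more. The last 63 were scarce, with a median of 2.67 CPM in induced vehicle cells. All of these shares compare contrasts with the same uninduced libraries.

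**Figure D2:**
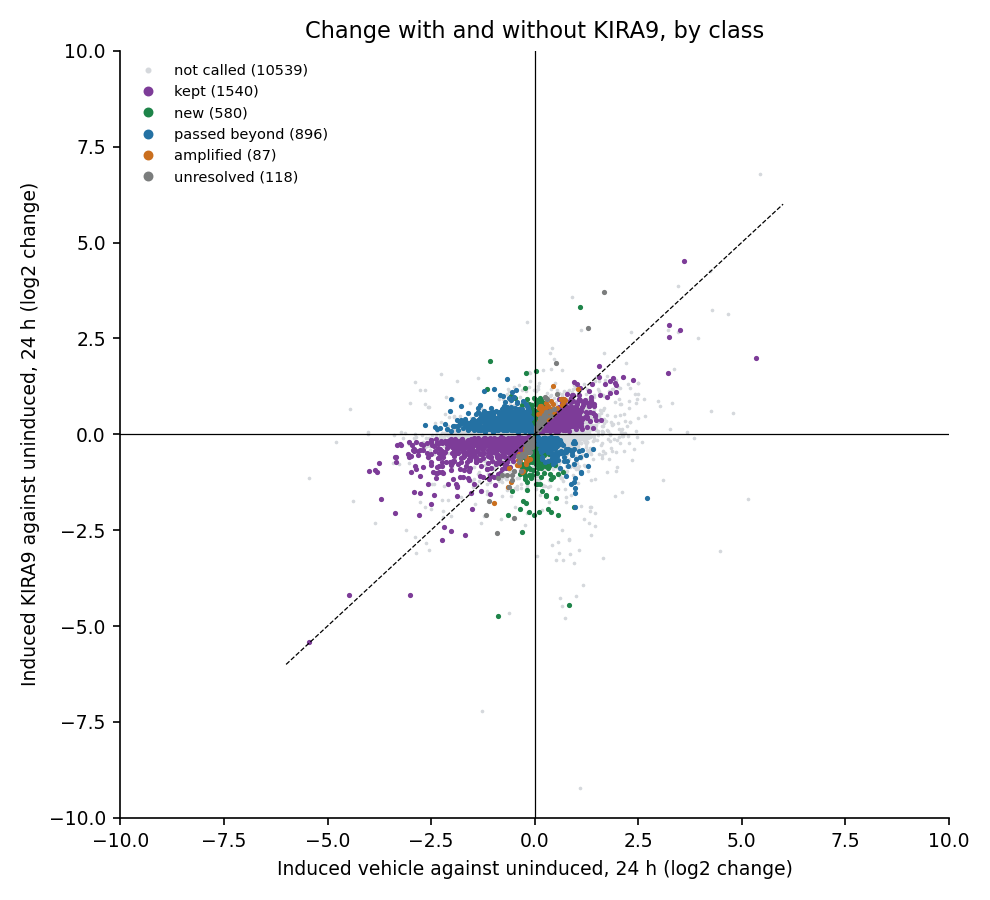
Each point is 1 of 13760 IDs, placed by its log2 change from uninduced cells at 24 h in induced vehicle cells (horizontal axis) and in induced KIRA9 cells (vertical axis), coloured by class. Both axes use the same 3 uninduced libraries. The dashed line marks equal change; most kept IDs lie between it and the horizontal zero line, and IDs that passed beyond lie in the upper left and lower right.

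The libraries at 4 h gave a view of the same question that shares no library with the comparison at 24 h. Induction alone had lowered 36 IDs at 4 h (0.262% of those tested) and raised 5 (0.0363%). Of the 36, 32 were called lower in KIRA9 than in uninduced cells at 24 h (88.9%, against 10.8% of all IDs) and the other 4 were not called. All 32 belonged to the kept class, and in 32 of the 36 the KIRA9 libraries lay below every uninduced library. At 24 h most of the 36 were lowered less with KIRA9 than with vehicle. The median change of the 36 at 24 h was -1.87 in induced vehicle and -0.69 in induced KIRA9 cells, and 35 of the 36 were called higher with KIRA9 than with vehicle.

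Early and late times differed for these IDs. At 4 h their median change from uninduced cells was -0.36 with vehicle, by which they were chosen, and 0.05 with KIRA9, with 10 of the 36 called above and 4 below the uninduced level, where 5.44% and 5.49% of all IDs were. At 24 h the KIRA9 changes ran from -2.10 to 1.11. In 31 of the 36 the change of induced KIRA9 cells from uninduced cells was called more negative at 24 h than at 4 h (4.43% of all IDs). The test of that difference uses the uninduced 4 h libraries that helped to choose them. Of the 5 IDs raised early, 3 were called higher with KIRA9 at 24 h. DESeq2 called 63 IDs lowered at 4 h, of which 53 were lower with KIRA9 at 24 h. At an adjusted p below 0.01, 22 IDs were called lower both by induction at 4 h and with KIRA9 at 24 h. Without the 6 libraries that carry the block, 31 IDs were lowered at 4 h and 27 of them were lower with KIRA9. With the induced libraries timed by the characteristic, the early list itself grew to 4449 IDs, of which 679 were lower with KIRA9.

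**Figure D3:**
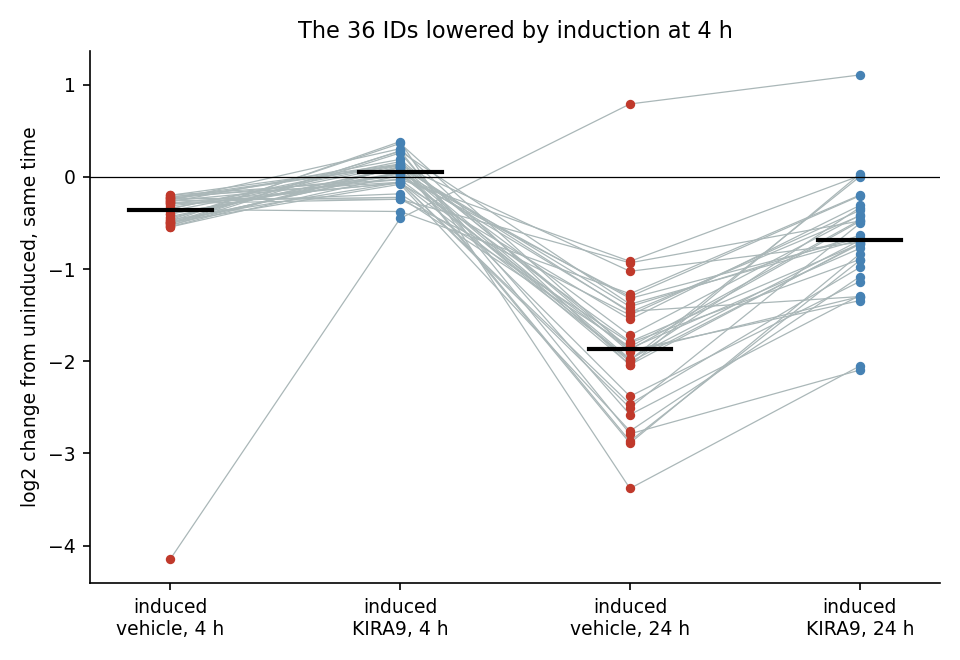
Log2 change from the uninduced cells of the same time (vertical axis) for the 36 IDs that induction lowered at 4 h, in 4 groups (horizontal axis); each point is an ID, lines join an ID across groups and black bars are medians (-0.36, 0.05, -1.87 and -0.69). With KIRA9 the IDs lie near the uninduced level at 4 h and mostly below it at 24 h.

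The 2 IDs printed for the kept class are those with the largest change in each direction by the naming rule, out of 707 raised and 691 lowered IDs that met its conditions. ENSRNOG00000012864 stood at 113, 100 and 99 CPM in the uninduced libraries at 24 h, at 945, 1010 and 999 CPM in induced vehicle libraries and at 775, 775 and 717 CPM with KIRA9. The 3 groups did not overlap, and the KIRA9 libraries lay nearer to the induced ones. The log2 change of KIRA9 from uninduced cells was 2.86 ± 0.05 (SE, adjusted p = 9.51e-21 in edgeR's quasi-likelihood test). At 4 h, with libraries outside the contrasts that chose it, the ID was at 115, 116 and 108 CPM without induction. With KIRA9 it was at 403, 402 and 405 CPM, a log2 change of 1.83 ± 0.05. Induced vehicle libraries at 4 h stood above these, at 812, 798 and 745 CPM. The distance of induced KIRA9 cells from uninduced cells was larger at 24 h than at 4 h, by 1.03 ± 0.07 (edgeR, adjusted p = 2.54e-10). That distance includes induction, which alone gave log2 changes of 2.79 at 4 h and 3.24 at 24 h. At both times the KIRA9 libraries lay below the induced vehicle libraries.

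ENSRNOG00000029399 was the most reduced of the kept lowered IDs that met the rule. It stood at 90, 96.5 and 91.7 CPM in uninduced, 13.7, 11.5 and 14.9 CPM in induced vehicle and 23.5, 18.5 and 23 CPM in KIRA9 libraries at 24 h. The KIRA9 libraries lay above all induced and far below all uninduced ones, with a log2 change of -2.10 ± 0.09 from uninduced cells (edgeR, adjusted p = 2.74e-14). At 4 h the order was another one. The uninduced libraries were at 56, 60.6 and 58.1 CPM, the induced vehicle libraries lower at 41.2, 39.1 and 42 CPM, and the KIRA9 libraries higher than both at 76.1, 69 and 67.5 CPM. KIRA9 cells were above uninduced cells at that time by 0.28 ± 0.08 on the log2 scale (edgeR, adjusted p = 0.0246). This change from uninduced cells was lower at 24 h than at 4 h by a log2 difference of -2.38 ± 0.12 (edgeR, adjusted p = 2.06e-12). This ID is 1 of the 36 that induction lowered early.

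What was new under KIRA9 was smaller in number than what was kept, except among raised IDs with the other time label (618 new, 501 kept). The 2 counts do not compare like with like. New IDs could come only from those not called for induction, which raised 29.8% and lowered 32% of all IDs. They also had to differ from induced vehicle cells, which kept IDs did not. The 248 new raised IDs had a median change of 0.32 from uninduced and 0.33 from induced vehicle cells, and 6 of them were at least 2-fold above uninduced cells. The 332 new lowered IDs had medians of -0.31 and -0.34, and 37 were at least 2-fold lower. Induction itself had medians of -0.02 and 0.04 over these IDs, which were chosen as not called for it. KIRA9 and uninduced libraries did not overlap in 242 of the 248 and 300 of the 332. The new IDs were of moderate level, with a median of 40.7 CPM (raised) and 35.6 CPM (lowered) in uninduced cells, beside 25.7 CPM for all IDs tested.

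The 2 new IDs printed here had the largest change among the 228 raised and 254 lowered IDs that met the naming rule, which leaves out IDs with larger changes. Both were scarce and varied within groups. ENSRNOG00000015818 was at 2.37, 1.89 and 2.44 CPM in uninduced, 0.701, 0.6 and 1.93 CPM in induced vehicle and 10.6, 3.86 and 11 CPM in KIRA9 libraries at 24 h. Every KIRA9 library lay above those of both vehicle groups, but 1 of them by little. Its log2 change from uninduced cells was 1.92 ± 0.45 (edgeR, adjusted p = 0.00267). PAIR1 raised it as well, to 6.58, 5.72 and 5.59 CPM at 24 h (log2 change 1.41, edgeR, adjusted p = 0.0216). PAIR1 and KIRA9 were not called apart for this ID. At 4 h the 3 KIRA9 libraries, at 1.91, 1.86 and 4.12 CPM, overlapped the uninduced ones at 2.88, 3.02 and 2.4 CPM. ENSRNOG00000021025 was at 8.59, 5.59 and 5.29 CPM in uninduced, 7.48, 12.3 and 5.97 CPM in induced vehicle and 0.621, 0.837 and 3.11 CPM in KIRA9 libraries at 24 h. Its log2 change of -2.03 ± 0.70 passed the threshold narrowly (edgeR, adjusted p = 0.04). The call was lost without KIRA9 replicate 1 (log2 change -1.68, adjusted p = 0.15), KIRA9 replicate 2 (-1.74, 0.14), uninduced replicate 1 (-1.76, 0.12) or uninduced replicate 2 (-2.13, 0.053). Without KIRA9 replicate 3 the change was -3.15. With PAIR1 at 24 h the change of this ID from uninduced cells was -0.02 and was not called. At 4 h its libraries ran from 0.671 to 6.32 CPM without induction and from 4.42 to 13.3 CPM with KIRA9.

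**Figure D4:**
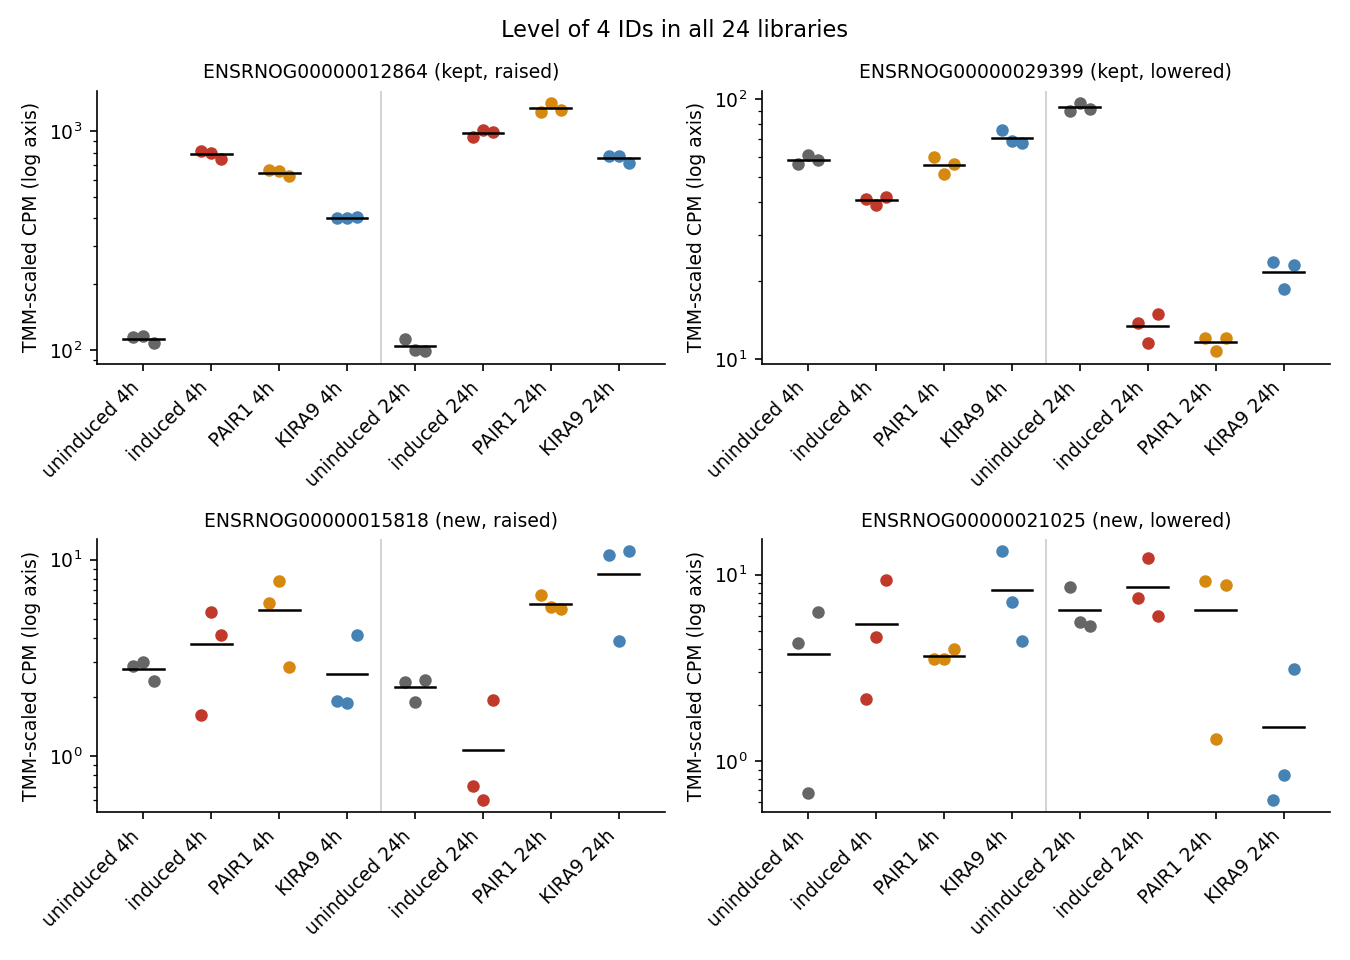
TMM-scaled CPM (vertical, log axis) of 4 IDs in the 24 libraries by group (horizontal axis), with points for libraries and black bars for the mean of 3. The 2 kept IDs (upper panels) show separate groups with KIRA9 between uninduced and induced at 24 h, and the 2 new IDs (lower panels) show wide spread within groups.

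A further class had moved past the uninduced level, 617 IDs upward and 279 downward. These were 35.6% of the raised and 18.8% of the lowered IDs, where induction had lowered 32% and raised 29.8% of all IDs tested. The 617 had been lowered by induction, with a median of -0.57, and stood at a median of 0.26 above uninduced cells with KIRA9. The 279 had been raised by induction, with a median of 0.33, and stood at -0.23 with KIRA9. The distance from uninduced cells was small: 6 of the 617 and 9 of the 279 reached 2-fold. The KIRA9 libraries lay outside the range of the uninduced libraries in 600 and 258 of them. The 617 IDs took 8.86 ± 0.17% of counts in uninduced, 6.39 ± 0.019% in induced vehicle and 10.9 ± 0.076% in KIRA9 libraries at 24 h (SD, n = 3), and were the most abundant of the 3 main classes raised with KIRA9, with a median of 76.5 CPM in uninduced cells. The amplified IDs had the largest median changes of all classes, 0.52 for the 59 raised and -0.62 for the 28 lowered, against 0.25 and -0.25 with induction alone. Without the 6 libraries that carry the block, 23 raised and 7 lowered IDs were amplified.

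The 4 h libraries had no part in the contrasts that made the classes, but shared the filter and the estimate of spread with them. At 4 h the KIRA9 libraries moved in the same direction for each class. Against uninduced cells at 4 h, 749 IDs rose with KIRA9 (5.44% of those tested) and 756 fell (5.49%). Among the IDs raised at 24 h, 134 of the 765 kept (17.5%), 61 of the 248 new (24.6%), 141 of the 617 passed beyond (22.9%) and 25 of the 59 amplified (42.4%) had already risen at 4 h. In the opposite direction were 29, 6, 22 and 2. Among the IDs lowered at 24 h, 131 of the 775 kept (16.9%), 71 of the 332 new (21.4%), 99 of the 279 passed beyond (35.5%) and 16 of the 28 amplified (57.1%) had already fallen, and 25, 3, 1 and 0 had risen. Called IDs were more abundant than others, and how far that raises these shares was not tested. Without the libraries that carry the block, the kept and the new lowered IDs that had fallen at 4 h numbered 70 and 44, and the passed beyond ones 53. With libraries scaled by their totals alone, the new raised IDs that had risen at 4 h numbered 39 and the passed beyond lowered IDs that had fallen 167.

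Seen from 4 h, 367 of the 749 IDs raised early in induced KIRA9 cells (49%, against 12.6% of all IDs) were raised at 24 h and 29 were lowered. Of the 756 lowered early, 323 (42.7%, against 10.8%) were lowered at 24 h and 61 were raised. Leaving out the 6 libraries that carry the block, 275 and 187 IDs were called in the same direction at both times. Which time showed the smaller change depended on the time at which IDs were chosen. Over the classes, chosen at 24 h, the medians at 4 h were 0.09 (new raised), 0.07 (passed beyond raised) and 0.04 (kept raised). All IDs tested had a median of 0. Over the lowered classes the medians at 4 h were -0.09, -0.11 and -0.05. The 749 IDs raised early, chosen at 4 h, had a median of 0.33 at 4 h and 0.21 at 24 h. For the 756 lowered early the medians were -0.22 and -0.11.

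Averaged over a class, the KIRA9 libraries at 4 h did not overlap the uninduced libraries of that time in any of the 8 classes drawn. The same held for the PAIR1 libraries at 4 h, on the same side, so this was not particular to KIRA9. Induced vehicle libraries overlapped the uninduced ones in some classes. On the log2(CPM + 1) scale, relative to the uninduced mean of that time, the new raised IDs were between 0.143 and 0.161 in the 3 KIRA9 libraries. They were between 0.087 and 0.101 with PAIR1 and between 0.01 and 0.015 in the induced vehicle libraries. The uninduced libraries ran from -0.006 to 0.006. The passed beyond raised IDs were between 0.098 and 0.128 with KIRA9 and between -0.012 and 0 in induced vehicle libraries, which overlapped the uninduced ones (-0.016 to 0.011). The passed beyond lowered IDs were between -0.143 and -0.133 with KIRA9. For the kept lowered IDs the KIRA9 libraries (-0.063 to -0.045) and the induced vehicle libraries (-0.068 to -0.052) overlapped at 4 h, while at 24 h they stood at -0.352 to -0.332 and at -0.98 to -0.977. In counts, the 617 passed beyond raised IDs took 9.43 ± 0.023% in uninduced and 10.3 ± 0.043% in KIRA9 libraries at 4 h. The new raised IDs went from 2.08 ± 0.0052% to 2.53 ± 0.015%, of which a single ID gave 0.275 of 0.45 percentage points.

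**Figure D5:**
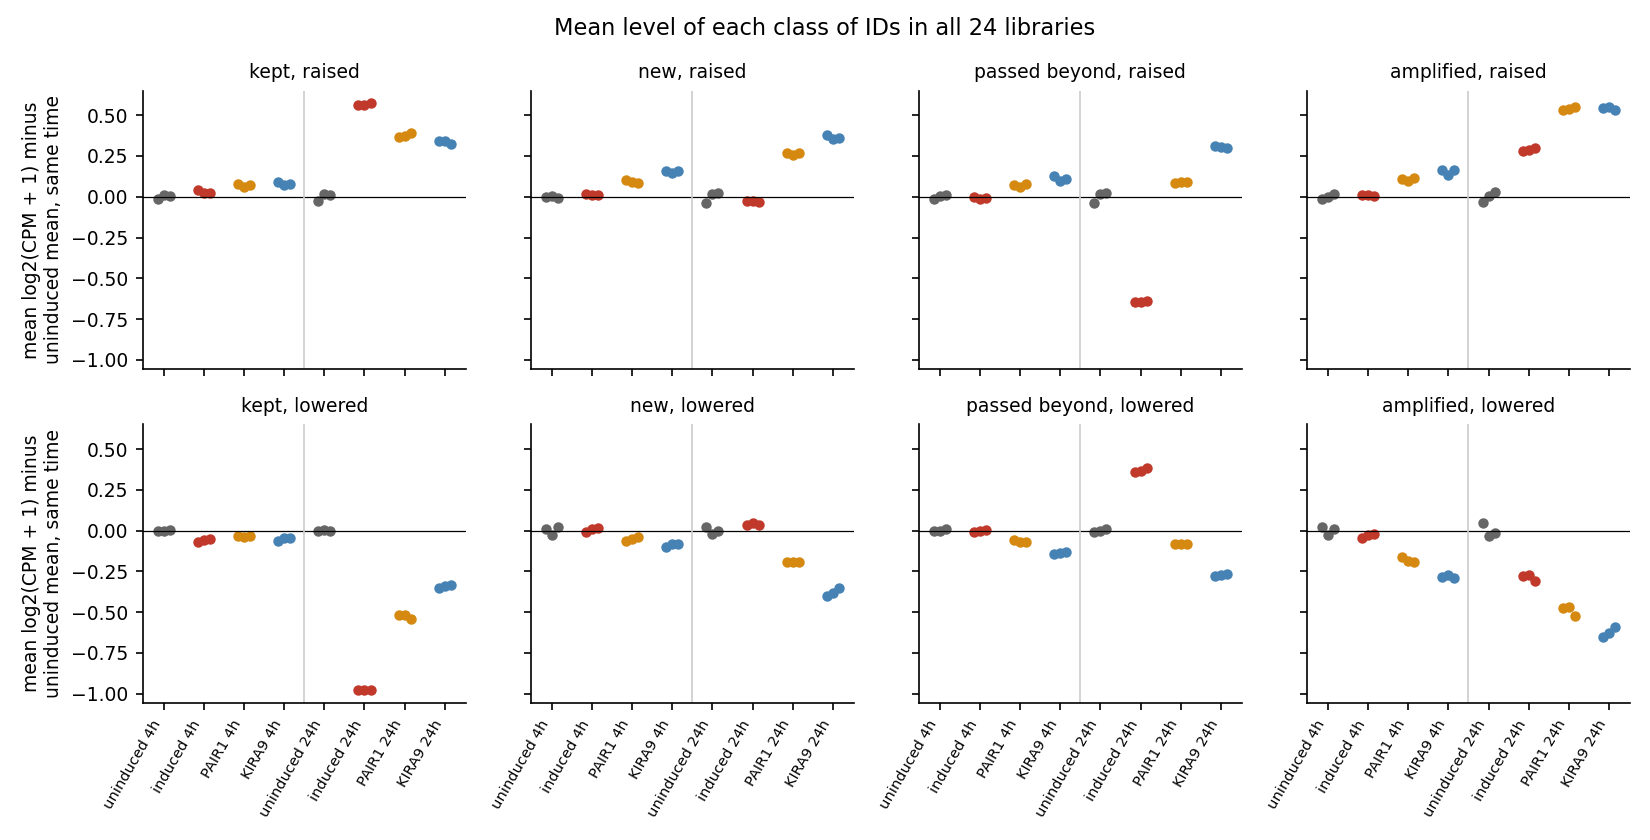
Mean of log2(CPM + 1) over the IDs of a class, minus the mean of the uninduced libraries of the same time (vertical axis), for each of the 24 libraries by group (horizontal axis), with 1 panel for each class and direction. The 24 h values of uninduced, induced and KIRA9 libraries follow from how the classes were made, and the 4 h values do not. The KIRA9 points at 4 h lie on the same side of 0 as at 24 h in all 8 panels, and so do the PAIR1 points.

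The difference between the times was also tested ID by ID. The change of induced KIRA9 cells from uninduced cells includes that of induction. It was more positive at 24 h than at 4 h in 890 IDs (6.47%) and more negative in 609 (4.43%). The difference was called in 1021 IDs in all without the 6 libraries that carry the block. The kept IDs held many of them: 337 of the 765 raised were more positive (44.1%) and 287 of the 775 lowered more negative (37%), against 94 of the 248 new raised (37.9%) and 68 of the 332 new lowered (20.5%). Among the passed beyond IDs it was 230 of 617 raised (37.3%) and 41 of 279 lowered (14.7%). The classes were chosen on the same 24 h libraries, which favours such differences.

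PAIR1, the other compound of the series, was also given to induced cells and was compared with KIRA9 on the same IDs. At 24 h, PAIR1 libraries exceeded KIRA9 libraries in 6% of all IDs tested and fell short of them in 10.3%. Of the 558 kept lowered IDs that KIRA9 had moved partly back, 263 were lower still with PAIR1 (47.1%) and 9 were higher. Of the 460 raised ones, 122 were higher with PAIR1 (26.5%) and 3 were lower. The 617 IDs that passed above the uninduced level with KIRA9 included 330 that were lower with PAIR1 (53.5%) and 1 that was higher, with median changes from uninduced cells of 0.26 with KIRA9 and 0.09 with PAIR1. Among the new IDs, 39 of the 248 raised were lower and 81 of the 332 lowered were higher with PAIR1. For the kept IDs not called between KIRA9 and induced vehicle cells, the medians were 0.32 and -0.28 with KIRA9 and 0.30 and -0.24 with PAIR1. The KIRA9 libraries helped to choose all of these IDs and the doses are not given, so the counts describe the treatments as applied.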

How the data were processed

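RNA of 24 INS1 samples was measured, in 8 groups of 3. The authors deposited 1 table of raw counts by Ensembl gene ID, whole numbers that they had not normalized. HISAT2 and HTSeq are named, with no version, per the submitters' processing notes; build, annotation and strand setting are not given in the sources used here. Overlapping, antisense or near-identical genes may therefore share reads. Every column matched 1 sample title. Of 26689 IDs, 6523 had no count and 13760 passed filterByExpr at a minimum count of 10. Counts were scaled by TMM and fitted with edgeR 4.0.16 (R 4.3.3) as 1 quasi-likelihood model of 8 group means over all 24 libraries. Benjamini-Hochberg adjustment ran over the 13760 IDs in each contrast, and IDs were called at an adjusted p below 0.05. SE is that of a log2 change. The procedure was tested on simulated data.

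Groups came from the titles. The labels do not name separate cultures for replicates, and p-values then reflect the spread between these samples alone, which may be technical. Replicates differed beyond sampling noise (chi-square per degree of freedom 3.6 to 19.1). Library totals ran from 12.6 to 23.8 M counts. IDs were named by rule: with no symbols, the kept and the new ID of each direction with the largest change, with the higher group averaging 5 CPM or more, no overlap of the groups and at most an 8-fold spread within groups. The comparison, the classes and the lists were chosen with earlier results of these data known. Alternatives were other scalings, DESeq2 1.42.0, no filter, fewer samples, a replicate block, an adjusted p below 0.01, the other time label and leaving out libraries. No sequence is printed, since no ID matched a sequence table.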

Additional observations from a re-analysis of the deposited data

Results flagged for a closer look

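The change of induced KIRA9 cells from uninduced cells, which includes that of induction, differed between the 2 times in the test of that difference in edgeR. It was more positive at 24 h in 890 IDs and more negative in 609. All 4 printed IDs stood out in the same way. This change from uninduced cells was higher at 24 h by a log2 difference of 1.03 for ENSRNOG00000012864 and of 1.99 for ENSRNOG00000015818, the latter at an adjusted p of 0.0497. It was lower by a log2 difference of -2.38 for ENSRNOG00000029399 and of -3.15 for ENSRNOG00000021025 (adjusted p = 0.0353), whose libraries varied widely within groups at both times. These 4 IDs were chosen for a large effect at 24 h, which favours a difference from 4 h.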

How the results depend on the processing

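With 1 of the 9 libraries of the uninduced, induced vehicle and KIRA9 groups at 24 h left out, 1462 to 1724 IDs rose and 1129 to 1526 fell. The kept class held 654 to 748 raised and 616 to 797 lowered IDs, the new class 216 to 260 and 230 to 330, and the passed beyond class 495 to 606 and 216 to 271. The difference between times was called in 1241 to 1513 IDs. At an adjusted p below 0.01, 873 IDs fell, 480 lowered IDs were kept, 180 lowered IDs were new, 399 raised and 138 lowered IDs had passed beyond, and 862 differed between times. Scaling by library totals alone gave 499 lowered IDs passed beyond, and 51.5% of calls upward instead of 53.9%. With the other time label, 501 raised IDs were kept, 618 were new and 151 had passed beyond, and 82 lowered IDs had passed beyond. Without the 6 libraries that carry the block, a choice added after seeing the data, 161 lowered IDs had passed beyond. With only the 6 compared libraries, also added, 885 IDs fell; fewer samples estimate the spread there. Of 163 recomputed main counts, 150 stayed within 1.5 times the reported one. Same-numbered KIRA9 and uninduced libraries at 24 h did not deviate together (r = -0.04, -0.05 and -0.07). For induced vehicle and uninduced libraries at 24 h the same-numbered values were -0.23, 0.22 and 0.37, and those of unlike number ran from -0.53 to 0.44. So few libraries cannot show whether the numbers pair the samples. With the replicate number as a replicate block 1747 IDs rose and 1503 fell, and no KIRA9 library at 24 h correlated best with the uninduced library of its own number. Calls were fewest among scarce IDs (below 5 CPM, 2.5% rose and 4.55% fell), and the part of depth in this was not tested.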
